A study of Mus musculus with 8 samples.

Results

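Collagen chain genes are described here in NIH3T3 cells, fibroblasts that were made into a permanent line from mouse embryos. The members are the 44 genes of the RNA-seq table, of 24062 listed, whose symbol is Col, a type number, the letter a and a chain number. Of these, 11 code for chains of fibrillar types, 6 for basement membrane chains of type IV, 6 for beaded chains of type VI and 21 for other types. The 14-3-3ε clones carried 14-3-3ε, a protein that binds phosphorylated partners, in the p3xFLAG-CMV-10 plasmid, driven by its CMV promoter. Control clones carried the control vector. Colonies were picked after selection with 800 µg/mL of the drug G418, were screened by western blot for the FLAG tag, and grew in 10% serum. For each of control clones 2 and 3 and of 14-3-3ε clones 10 and 12 there was 1 library by RNA-seq and 1 by reduced representation bisulfite sequencing (RRBS), which samples CpG-rich DNA, giving 8 samples in 4 groups of 2. Each group is 2 clones of 1 line, so a difference between groups cannot be told apart from one between picked clones.

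Collagens are built from chains that wind around each other in a triple helix of repeating triplets that begin with glycine. Fibrillar collagens form the tensile fibres of connective tissue and are the main secreted product of fibroblasts. Type IV forms the sheet of basement membranes, type VI forms beaded filaments near cells, and smaller families decorate fibrils, span the plasma membrane or anchor epithelia. Some types, such as types I, IV, V, VI and XI, combine different chains in a trimer, while others, type III among them, are made of a single kind of chain.

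Both deposited tables hold the authors' comparison of the groups and no value for any clone, so neither levels per clone nor the spread between clones can be shown. In the RNA-seq table, log2 fold changes, their standard errors (SE) and p-values adjusted by Benjamini-Hochberg were taken as the authors' DESeq2 output. A gene was called at an adjusted p under 0.05. The direction is not stated in either table. A positive value was read as higher in 14-3-3ε clones, and each "rose", "higher" and "lower" in this text rests on that reading. Ywhae, the gene of 14-3-3ε, had a log2 fold change of -0.03 (SE 0.18, adjusted p 0.942, authors' deposited table), so a higher level of 14-3-3ε RNA was not seen in this table and Ywhae does not settle the direction. The sources used here do not say whether reads from the plasmid would be counted as Ywhae. Library depth is unknown from these tables. The 44 chains together held 2.07% of the summed mean normalized counts of all listed genes in the authors' deposited table, and fibrillar chains held 1.48%.

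Fibroblast markers were all high, while most markers of other cell types were low. All 8 fibroblast markers, of which Col1a1 and Col1a2 are themselves collagen chains, had mean normalized counts of 4843 or more in the authors' deposited table, and 4 of them rose. Besides Col1a1 and Col1a2 these were the growth factor receptor genes Pdgfra, at a log2 fold change of 1.70, and Pdgfrb, at 1.36, by the authors' deposited table. The background for calls among markers is 6.15% higher and 4.74% lower over all genes with an adjusted p. Vim, S100a4, Fn1 and Thy1 were not called, with log2 fold changes of -0.06, 0.09, 0.13 and 0.50 by the authors' deposited table. Of the 5 bone markers none exceeded 5.05, and Sp7 and Ibsp were at 0 in the authors' deposited table. The cartilage markers Col2a1, Acan, Matn1 and Matn3 lay between 0.25 and 6.47 in mean normalized count in the authors' deposited table, while Sox9, a regulator of cartilage genes, lay at 1440 and rose with a log2 fold change of 0.86. The 5 endothelial markers did not exceed 14.3 and had no adjusted p. Of the 5 markers each for epithelium and for neural cells, the keratin gene Krt14 and the neuronal gene Map2 fell in the authors' deposited table, by log2 fold changes of -1.41 and -1.36. Applied to its mean of 52.7, the fold change of Krt14 would put it in 14-3-3ε clones below 33.1, the lowest mean with an adjusted p. Krt14 may therefore have passed through the group where it was high. Of the muscle markers Des fell, with a log2 fold change of -1.28, and no adipocyte or blood marker was called in the authors' deposited table. Not all of these markers were low. Mean normalized counts were 2800 for the adipocyte marker Lpl, 781 for Map2, 220 for the muscle marker Actg2 and 110 for the blood marker Cd68. Each was the only member of its list with a mean of at least 100. The part of other cell types in the collagen values was not tested.

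The sequences just upstream of the collagen genes with the largest rises show how different their promoters are. Shown are the 250 bases before the RefSeq start (build GRCm38.p6, the assembly of mm10) of the 5 called chains with the largest fold changes among those with an entry in the promoter table. Each runs 5′ to 3′ on the strand of its gene, and capitals mark each CpG, the only place where the methylation table can hold a value. Col3a1 lies at chr1:45311288-45311537 (plus strand), Col5a3 at chr9:20815068-20815317 (minus strand), Col6a2 at chr10:76623631-76623880 (minus strand), Col6a1 at chr10:76726045-76726294 (minus strand) and Col5a1 at chr2:27886175-27886424 (plus strand).
Col3a1: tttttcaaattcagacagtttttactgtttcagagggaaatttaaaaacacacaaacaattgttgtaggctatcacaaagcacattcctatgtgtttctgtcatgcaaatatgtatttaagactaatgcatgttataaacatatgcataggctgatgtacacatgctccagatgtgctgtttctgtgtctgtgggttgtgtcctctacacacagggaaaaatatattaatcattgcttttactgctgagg
Col5a3: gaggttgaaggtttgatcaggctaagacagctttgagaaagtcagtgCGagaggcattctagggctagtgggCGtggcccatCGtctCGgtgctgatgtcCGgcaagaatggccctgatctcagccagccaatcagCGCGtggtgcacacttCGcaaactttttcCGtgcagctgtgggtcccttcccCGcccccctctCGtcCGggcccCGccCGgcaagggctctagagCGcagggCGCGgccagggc
Col6a2: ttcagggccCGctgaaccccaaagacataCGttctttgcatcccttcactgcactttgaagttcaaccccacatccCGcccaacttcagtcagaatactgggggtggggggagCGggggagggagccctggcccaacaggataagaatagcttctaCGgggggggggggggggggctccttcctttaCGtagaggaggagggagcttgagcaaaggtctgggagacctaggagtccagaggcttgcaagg
Col6a1: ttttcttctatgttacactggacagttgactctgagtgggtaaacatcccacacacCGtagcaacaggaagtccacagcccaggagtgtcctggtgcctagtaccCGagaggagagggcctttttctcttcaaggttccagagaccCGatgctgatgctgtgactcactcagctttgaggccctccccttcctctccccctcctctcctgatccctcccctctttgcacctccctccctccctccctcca
Col5a1: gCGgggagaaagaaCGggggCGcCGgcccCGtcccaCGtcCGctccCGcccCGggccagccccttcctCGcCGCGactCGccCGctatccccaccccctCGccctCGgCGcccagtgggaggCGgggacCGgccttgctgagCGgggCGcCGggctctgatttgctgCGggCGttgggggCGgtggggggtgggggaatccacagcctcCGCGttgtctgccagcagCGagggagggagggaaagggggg

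No CpG stands in the Col3a1 sequence, against 28 in that of Col5a1 and 17 in that of Col5a3. Col6a1 has 3 CpGs and Col6a2 has 6 before the start shown, at 76623630, and 14 before its other RefSeq start, at 76623404. The promoter table held 38 starts for 35 of the 44 chains, with a median of 9.5 CpGs in the 250 bases, against 6 over all 32851 starts. For the 9 starts of called chains the median was 11, and for the 16 starts of chains without an adjusted p it was 8.5. For the 13 starts of chains that were tested and not called it was 10. The median share of G and C in the 250 bases was 59% at collagen starts, against 52.4% at all starts. Motifs were searched on both strands of the 250 bases. The GC box letters GGGCGG were found at 22 of the 38 collagen starts (57.9%) and at 32.7% of all starts. They stood at 7 of the 9 starts of called chains, 2 of which belong to Col6a2. The same letters stood at 8 of the 13 starts of chains not called (61.5%) and at 7 of the 16 without an adjusted p. The letters CCAAT were found at 13 collagen starts (34.2%, against 33.8% of all starts), Col1a2, Col5a3 and Col11a1 among them. The letters TATAAA were found at 5 (13.2%, against 12.4%), Col3a1 among them. These are matches of letters and not known binding sites.

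Of the fibrillar collagen genes 7 of 11, the beaded chain genes Col6a1 and Col6a2 and the fibril-associated gene Col22a1 were higher in 14-3-3ε clones, and no collagen gene was called lower. An adjusted p was given to 24 of the 44 chains, of which 10 rose (41.7%). Over all 11482 genes with an adjusted p, 6.15% were called higher and 4.74% lower, in the authors' deposited table. The median log2 fold change of the 24 chains was 0.68, against -0.003 over all genes with an adjusted p, as computed from the authors' deposited table. Over all chains with a mean normalized count of at least 1, which adds 13 with means up to 18.8, it was 0.27. Of the 24, 21 had a positive fold change and 3 a negative one. At an unadjusted p under 0.05 by the authors' DESeq2 test, 14 chains were higher and none lower, against 12.0% higher and 11.8% lower of all genes with an adjusted p. In bulk RNA, more RNA per cell and more cells that make a transcript cannot be told apart.

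The authors gave an adjusted p only down to a mean normalized count of 33.1. Of the chains called, Col11a1 alone would lie below that mean in control clones if its fold change were applied to its mean (32.1), so it may have passed through the group where it was high. Without it, 9 of 23 chains rose. No gene with a mean of 1 or less had a log2 fold change beyond 0.11 in size in the authors' deposited table, so nothing can be read from the small values of weakly expressed chains.

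**Figure D1:**
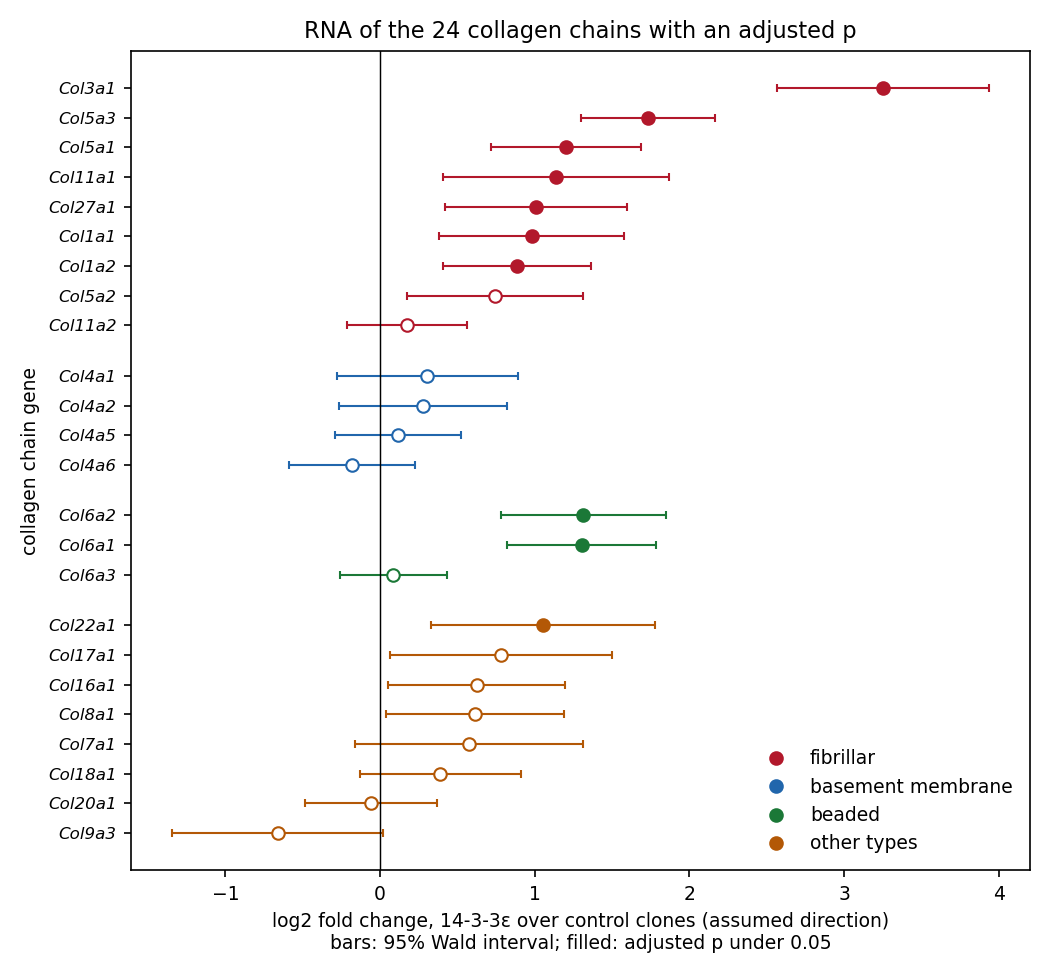
Log2 fold change (x axis) of each of the 24 collagen chain genes with an adjusted p (y axis), as deposited by the authors, with 95% Wald intervals as bars and filled points for an adjusted p under 0.05. The 4 basement membrane chains stay within 0.31 of 0, while 7 of 9 fibrillar chains are called and Col3a1 stands apart at 3.25.

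Among fibrillar chains, 7 of the 9 with an adjusted p rose, with a median log2 fold change of 1.01 over the 9 in the authors' deposited table. Col3a1, the chain of type III collagen that runs with type I in pliable tissue such as skin and vessel walls, rose about 9.53-fold (95% Wald interval 5.94 to 15.3, computed from the authors' deposited table). Its mean normalized count was 82938 over the 4 libraries in the authors' deposited table. Taken with its fold change, that mean would correspond to about 15749 in control and 150126 in 14-3-3ε clones, a derived pair and not measured group means. Only 5 of the 11482 genes with an adjusted p had a larger log2 fold change than Col3a1 in the authors' deposited table.

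The other fibrillar rises were smaller. Col5a3, a minor chain of type V collagen, rose 3.32-fold (2.46 to 4.48) from the authors' deposited table, with an adjusted p of 1.30e-12. Col5a1, the chain found in most type V molecules, which nucleate type I fibrils and limit their width, rose 2.30-fold (1.64 to 3.23; adjusted p 6.45e-05, authors' deposited table). Col1a1 and Col1a2, the chains of type I collagen, rose 1.97-fold (1.30 to 2.99) and 1.85-fold (1.33 to 2.57) in values computed from the authors' deposited table, with adjusted p of 0.0182 and 0.00543. Col27a1, a fibrillar chain known from cartilage, rose 2.01-fold (1.34 to 3.02; adjusted p 0.0125, authors' deposited table). Col11a1, a chain of the cartilage fibril collagen type XI that also forms molecules with type V chains, rose 2.20-fold (1.33 to 3.65; adjusted p 0.0269, authors' deposited table) from a mean normalized count of 51.5.

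Neither remaining fibrillar chain with an adjusted p was called. Col5a2, the second chain of the common type V molecule, had a log2 fold change of 0.74 (SE 0.29, adjusted p 0.0792, authors' deposited table), just outside the threshold, while Col22a1 at 0.0425 was just inside. Col11a2 had a log2 fold change of 0.17 (SE 0.20, adjusted p 0.653) in the authors' deposited table, with an interval from 0.864-fold to 1.47-fold. Col2a1, the main collagen of cartilage, and Col24a1 had mean normalized counts of 6.47 and 0.464 in the authors' deposited table and no adjusted p.

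Basement membrane chains showed no call. Col4a1 and Col4a2, which build the type IV network found in nearly all basement membranes, had log2 fold changes of 0.31 (SE 0.30) and 0.28 (SE 0.28) in the authors' deposited table. Their adjusted p were 0.586 and 0.601, and their intervals reached from 0.825-fold to 1.85-fold and from 0.830-fold to 1.77-fold. Col4a5 and Col4a6, X-linked chains of more restricted type IV networks, had log2 fold changes of 0.12 (SE 0.21) and -0.18 (SE 0.21) in the authors' deposited table, with adjusted p of 0.794 and 0.663. A change as large as that of Col5a1 lies outside all 4 of these intervals, and none of the 4 excludes a fold change of 1. Col4a3 and Col4a4, chains of the mature kidney filter, had mean normalized counts of 4.18 and 1.75 in the authors' deposited table and no adjusted p.

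Of the beaded chains, Col6a1 and Col6a2 rose to nearly equal extents and Col6a3 was not called. Col6a1 rose 2.47-fold (1.77 to 3.45; adjusted p 8.13e-06) and Col6a2 rose 2.49-fold (1.72 to 3.60; adjusted p 7.16e-05), from the authors' deposited table. Col6a3, the large chain that joins them in the usual type VI molecule, had a log2 fold change of 0.09 (SE 0.18, adjusted p 0.820) in the authors' deposited table. Its interval ran from 0.837-fold to 1.35-fold, with a mean normalized count of 24233. Col6a4, Col6a5 and Col6a6, which can take the place of Col6a3, had mean normalized counts of 3.43, 0.270 and 2.14 in the authors' deposited table and no adjusted p.

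Among chains of other types, 1 of the 8 with an adjusted p rose. Col22a1, a fibril-associated chain known from tissue junctions such as that of muscle and tendon, rose 2.08-fold (1.26 to 3.43; adjusted p 0.0425, authors' deposited table). Positive values that did not pass were 0.63 (SE 0.29) for the fibril-associated Col16a1 and 0.62 (SE 0.29) for the network-forming Col8a1 in the authors' deposited table. Col17a1, a transmembrane chain of the epidermal hemidesmosome, had 0.78 (SE 0.37), and Col7a1, which makes the anchoring fibrils of skin, had 0.57 (SE 0.38) in log2 fold change in the authors' deposited table. Col18a1, whose end fragment is endostatin, had a log2 fold change of 0.39 (SE 0.26) in the authors' deposited table. Their adjusted p lay between 0.158 for Col16a1 and 0.380 for Col18a1 in the authors' deposited table.

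Among the 24 chains with an adjusted p, 3 had negative values, Col4a6 and 2 of other types. Col9a3, a chain of the fibril-associated type IX collagen of cartilage, had a log2 fold change of -0.66 (SE 0.35, adjusted p 0.228) and Col20a1 had -0.06 (SE 0.22, adjusted p 0.916) in the authors' deposited table. Of the 20 chains in all classes without an adjusted p, Col25a1 and Col26a1 were at 0, and the other 18 had mean normalized counts from 0.25 to 18.8 and log2 fold changes from -0.20 to 0.27 in the authors' deposited table. Of these 18 values 11 were negative. The highest of these means, 18.8, was that of Col10a1, the collagen of hypertrophic cartilage, whose span lies inside that of Nt5dc1. The sources used here do not say how reads over both genes were assigned. Between 1 and 10 in mean normalized count were Col12a1 at 8.18, Col28a1 at 6.72, Col14a1 at 3.72, Col9a1 at 3.48, Col9a2 at 2.91, Col8a2 at 1.23 and Col15a1 at 1.01 in the authors' deposited table, next to the low chains already named. Below 1 were also the transmembrane chain genes Col13a1 at 0.811 and Col23a1 at 0.743, and Col19a1 at 0.25, in mean normalized count of the authors' deposited table.

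**Figure D2:**
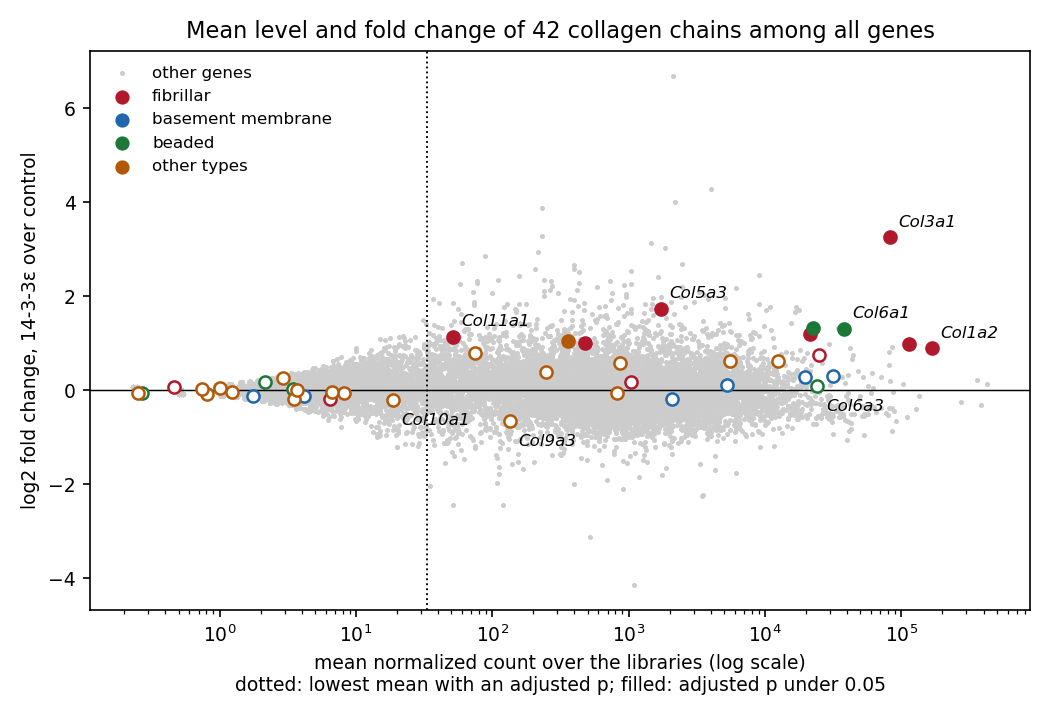
Mean normalized count on a log axis (x) against log2 fold change (y) as deposited by the authors, for 42 collagen chains by class and all other genes in grey, with filled points for an adjusted p under 0.05. To the left of the dotted line at 33.1, where no adjusted p was given, collagen chains lie between -0.20 and 0.27, and to its right all 10 called chains lie above 0.

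Chains that share a trimer were set side by side by the difference of their log2 fold changes. The SE of such a difference was computed as if the errors of both genes were independent, which the tables do not show, and no test was made. For type I, Col1a1 minus Col1a2 was 0.09 (SE 0.39), computed from the authors' deposited table. For type VI, Col6a1 minus Col6a2 was -0.01 (SE 0.37), while Col6a1 minus Col6a3 was 1.22 (SE 0.30) and Col6a2 minus Col6a3 was 1.23 (SE 0.32), computed from the authors' deposited table. The 95% intervals of the differences from Col6a3 ran from 0.63 to 1.81 and from 0.59 to 1.86, and that between Col6a1 and Col6a2 from -0.73 to 0.71. For type V, Col5a3 minus Col5a2 was 0.99 (SE 0.36) and Col5a1 minus Col5a2 was 0.46 (SE 0.38), computed from the authors' deposited table. For type XI, Col11a1 minus Col11a2 was 0.97 (SE 0.42), and for type IV, Col4a1 minus Col4a2 was 0.03 (SE 0.41), computed from the authors' deposited table.

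Several chains are neighbours in the genome. Col3a1 (chromosome 1, 45311538 to 45349706) and Col5a2 (45374331 to 45503282) lie 24624 bp apart, and the log2 fold change of Col3a1 exceeded that of Col5a2 by 2.51 (SE 0.45), computed from the authors' deposited table. Col6a2 (chromosome 10, 76595756 to 76623630) and Col6a1 (76708792 to 76726044) lie 85161 bp apart, and their log2 fold changes differed by less than the SE of the difference. Col4a1 and Col4a2 lie head to head on chromosome 8 and their annotated spans overlap by 85 bp. Col4a6 and Col4a5 lie 1274 bp apart on chromosome X, with 0.30 (SE 0.29) between their log2 fold changes, computed from the authors' deposited table.

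Genes that process collagen were counted from 8 lists of the steps from folding to breakdown. Trimming of the propeptides, which lets fibrils form, had 3 of 5 members with an adjusted p higher and none lower, with a median log2 fold change of 1.15 in the authors' deposited table. Adamts2, which removes the amino propeptide, rose with a log2 fold change of 1.93 (SE 0.26), Bmp1, which removes the carboxyl propeptide, with 1.24 (SE 0.23) and its enhancer Pcolce with 1.15 (SE 0.26), all from the authors' deposited table. Crosslinking had 3 of 6 higher and none lower, with Loxl1 at 1.11, Loxl3 at 0.97 and Lox at 0.81 in the authors' deposited table. Breakdown and uptake had 3 of 5 higher and none lower. These were Mmp9 at 1.11, the uptake receptor gene Mrc2 at 1.06 and the membrane collagenase gene Mmp14 at 0.78 in the authors' deposited table. As for Col11a1, the control count implied for Mmp9 (32.5) lies below the lowest tested mean, and without it 2 of 4 were higher.

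In hydroxylation, glycosylation and folding, 1 of 16 members with an adjusted p rose and none fell, with a median log2 fold change of 0.25 in the authors' deposited table. That member was Fkbp14, a prolyl isomerase of the endoplasmic reticulum, at 1.28 (SE 0.26, adjusted p 5.03e-05, authors' deposited table). Plod2 and Plod3, lysyl hydroxylase genes, had log2 fold changes of -0.55 (SE 0.22) and -0.43 (SE 0.21) in the authors' deposited table, with adjusted p of 0.0978 and 0.186. The collagen chaperone gene Serpinh1 had 0.28 (SE 0.25, adjusted p 0.533) in the authors' deposited table. In export from the endoplasmic reticulum 2 of 8 rose and none fell. They were Creb3l1, a membrane-bound factor known to drive secretion and collagen genes, at 1.42 (SE 0.21) and the coat gene Sec23a at 0.76 (SE 0.24) in the authors' deposited table.

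Of genes that bind fibrils 2 of 8 rose and none fell, Fmod at 2.32 and Sparc at 0.97 in the authors' deposited table. The control count implied for Fmod (25.8) also lies below the lowest tested mean, and without it 1 of 7 rose. Of collagen receptors 1 of 5 rose and none fell, the integrin chain gene Itga11 at 1.87 (SE 0.31), while Ddr2, a receptor kinase for fibrillar collagen, had 0.23 (SE 0.26) in the authors' deposited table. Of 20 genes of the TGF-beta route and factors known to act on collagen genes, 4 rose and none fell. They were Egr1 with a log2 fold change of 1.77, Tgfbr2 with 1.39, Tgfb3 with 0.90 and Sox9 with 0.86, from the authors' deposited table. The median of that list was 0.08. The background for each of these counts is the 6.15% called higher among all genes with an adjusted p.

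**Figure D3:**
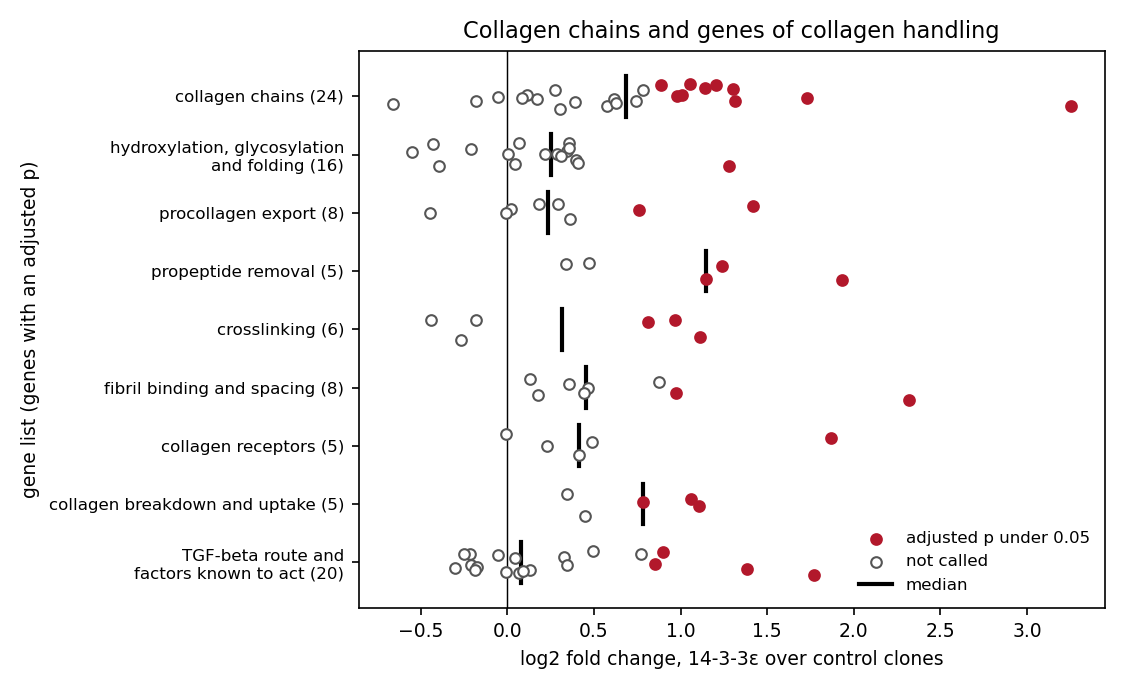
Log2 fold changes (x axis) of genes with an adjusted p, as deposited by the authors, for the collagen chains and for 8 lists of collagen handling (y axis, number of genes in brackets), with called genes in red and the median as a bar. No red point lies below 0, and medians run from 0.08 for the TGF-beta route to 1.15 for propeptide removal.

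DNA methylation at collagen genes was read in windows of 1000 bp on each side of a RefSeq start and over the rest of each annotated span. A window with at least 5 listed cytosines was called when at least 3 and at least 10% of them had a q under 0.05, all in 1 direction. Of 38 collagen windows, 26 had enough listed cytosines, and none was called higher or lower, against 1.14% called higher and 1.96% called lower of 17244 windows over all genes. Single cytosines were called in 20 of the 26 windows (76.9%) by their deposited q-values, and in 57.2% of the windows of all genes. Counting a cytosine in overlapping windows once, 32 were higher and 44 lower of 1218 listed (6.24%), against 3.47% of 785805 listed in the windows of all genes. In the windows of chains called higher by RNA, 5 were higher and 1 lower of 261 listed (2.30%). Over all 2361680 listed cytosines, 1.92% were called higher and 2.83% lower. These q-values need not hold the spread between clones, since the sources used here do not say how that test handled clones.

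Of the windows of chains called by RNA, 5 had enough listed cytosines, with means between -3.13 points for Col5a3 (34 cytosines, none called) and 1.41 for Col27a1 (83 cytosines, 4 higher) in differences averaged from the authors' deposited table. The Col5a1 window held 106 listed cytosines with a mean of -0.13 points and 1 called, the Col1a2 window 16 with a mean of 1.23 and none called, and the Col11a1 window 22 with a mean of -0.73 and 1 called, from the authors' deposited table. At the promoters printed here, 28 cytosines were listed in the Col5a1 sequence with 1 called and 25 in the Col5a3 sequence with none called. No cytosine was listed in those of Col3a1, Col6a1 and Col6a2, and within 1000 bp of the start there were 0, 4 and 2. Methylation at the start of Col3a1, the chain with the largest rise, was therefore not measured.

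Calls within a start window or near it lay close together at a few chains. At the start shared by Col4a1 and Col4a2, lower methylation was called at 9 of 121 listed cytosines and higher at none, which is under the 10% the rule asks for, and the mean was -5.08 points in the authors' deposited table. Of these 9, 7 lay within 35 bp (chromosome 8, 11312399 to 11312433), 393 to 427 bp inside Col4a1. They are also upstream of Col4a2, the farthest at -406 bp from its start. Their differences ran from -34.0 to -12.3 points in the authors' deposited table, while neither gene was called by RNA. At Col25a1, whose mean normalized count was 0, 9 of 60 cytosines were lower and 2 higher, with a mean of -4.75 points in the authors' deposited table. At Col27a1, 7 of 12 listed cytosines on chromosome 4 from 63213963 to 63214074 were higher, by 18.5 to 43.2 points in the authors' deposited table. They lie across the outer end of the annotated span, more than 1000 bp before the RefSeq start at 63215412, and Col27a1 RNA rose.

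**Figure D4:**
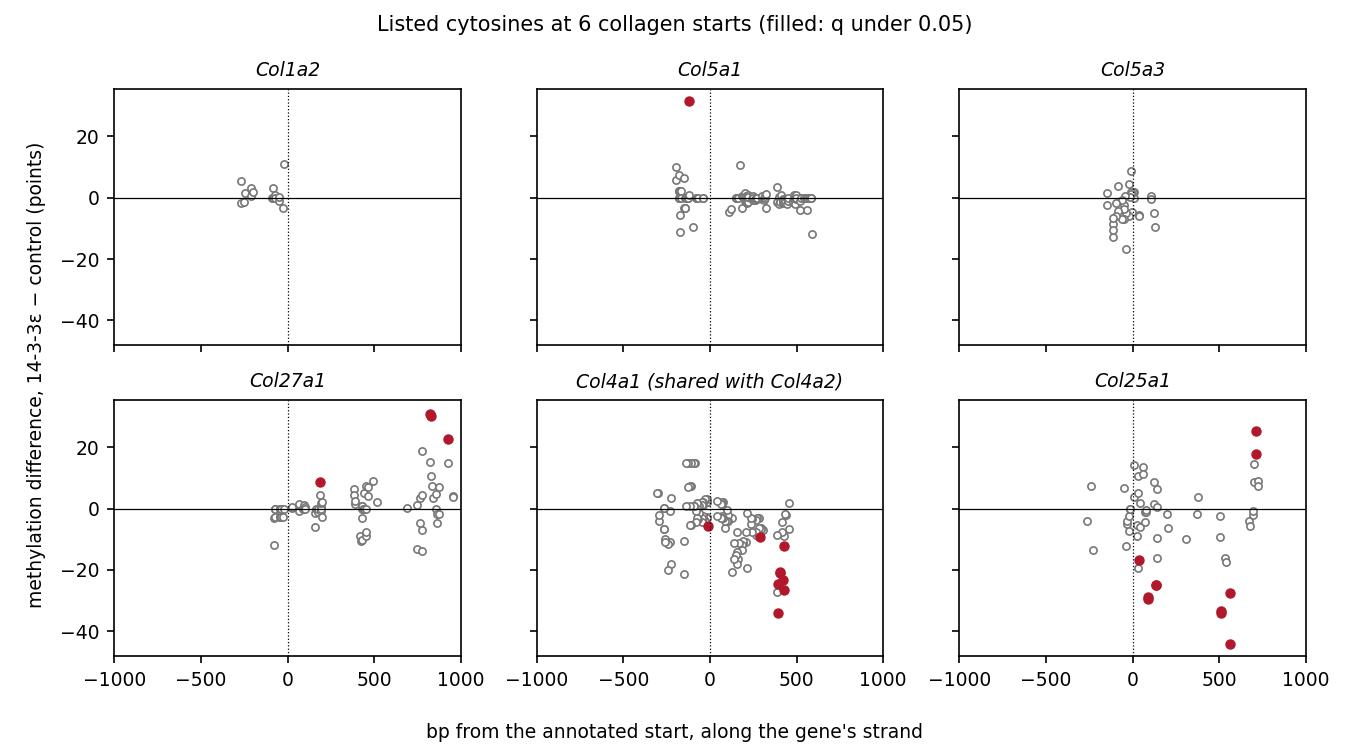
Difference in methylation in percentage points (y axis) of each listed cytosine against its distance in bp from the annotated start along the gene (x axis), for 6 collagen starts, with red points for q under 0.05, from the authors' deposited table. At Col1a2 and Col5a3 no point is red, while at Col4a1 red points gather near 400 bp and at Col25a1 they lie on both sides of 0.

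Over the rest of the annotated spans, each of the 44 chains had at least 10 listed cytosines. For the 9 chains without a promoter entry no start window could be cut out, so their values cover the whole span. Among these are Col5a2 and the called chains Col1a1 and Col22a1. Other protein-coding genes without an entry were treated in the same way. The mean difference per gene ran from -6.31 points at Col6a5 to 3.67 at Col5a2, with a median of -0.37, against -0.28 over 13952 protein-coding genes, averaged from the authors' deposited table. Of 5267 listed cytosines, 127 were called higher and 167 lower (5.58%), against 4.67% in the spans of all protein-coding genes. In the 10 chains called by RNA, 31 of 1031 were called (3.01%), 9 higher and 22 lower. In the 7 chains with a mean normalized count under 1, 120 of 1292 were called (9.29%), and the mean difference was negative at each of the 7, against 59.3% of the bodies of all protein-coding genes. Coverage per cytosine is not known, so these shares were not tested.

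At Col1a1 (chromosome 11, 94936224 to 94953042) 97 cytosines were listed in the span, 7 were lower and 1 was higher, with a mean of -3.003 points in the authors' deposited table. Of the lower ones, 4 lay in 2 CpGs at 94941263 and 94941386, where the differences were from -24.2 to -15.5 points in the authors' deposited table. In the Col3a1 span 20 cytosines were listed, of which 1 was called, higher by 18.97 points at position 45331766 in the authors' deposited table. In the Col6a2 body none of 153 was called, and in the Col6a1 body 3 of 72 were lower. Mean differences in the bodies of called chains had both signs, with 8 negative and 2 positive, beside the same 59.3% negative over all protein-coding genes.

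**Figure D5:**
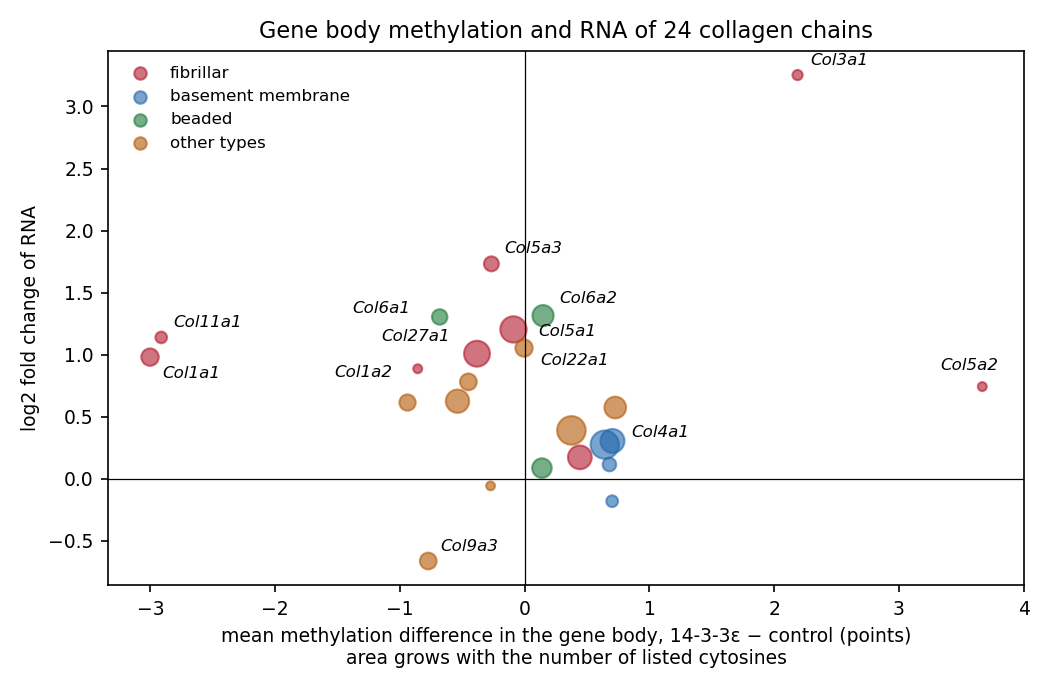
Mean methylation difference in the gene body outside the start window in percentage points (x axis) against log2 fold change of RNA (y axis) for the 24 chains with an adjusted p, from the authors' deposited tables, with point area growing with the number of listed cytosines. Col1a1, Col5a2, Col9a3 and Col22a1 had no promoter entry, so their whole spans are shown. Col3a1 and Col5a2 stand to the right with 20 and 11 cytosines and Col1a1 and Col11a1 to the left with 97 and 32, and the remaining chains lie within 1 point of 0.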

How the data were processed

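RNA and DNA methylation of 2 control and 2 14-3-3ε clones of NIH3T3 were compared by the authors, whose tables are the only values used. Per the submitters' processing notes, Trim Galore, TopHat2, HTSeq and DESeq2 (RNA) and Bismark, Bowtie2 and methylKit (RRBS) were used with build mm10, with no version, role or setting. Per the labels, RNA inserts were near 200 bp, and RRBS used MspI fragments sized between 150 and 400 bp. RNA p-values reach no further than these clones, and the sources used here do not say how that test estimated the spread between them. The authors deposited a mean level (a signal read as the mean normalized count), a log2 fold change with its SE, a test score equal to their ratio, and p-values with adjusted values. For each cytosine they deposited p-values, q-values and a difference in percent methylation. The fold change was deposited without its direction.

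Values were computed with Python 3.11.15, pandas 2.3.3 and scipy 1.17.1. Wald intervals are the log2 fold change plus or minus 1.96 SE. A total of 253 duplicate cytosine lines were removed. All 44 chains matched RefSeq (GRCm38.p6), and 35 had a promoter entry. Start windows without an entry, and protein sequences, were not used here. The planned count model for cytosines was replaced by the window rule, since no counts per clone were given. Members and lists were chosen with earlier results of these data known. The naming rule took every chain with an adjusted p, other chains with a mean of at least 1, up to 5 called members of a list in each direction, and the loci of called chains. Alternatives changed thresholds, adjustment, centring, minimum levels and windows. The adjustment and window code was tested on simulated data.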

Additional observations from a re-analysis of the deposited data

How the results depend on the processing

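Counts of collagen chains called higher kept their direction in every RNA alternative run, and none was called lower in any. Against 10 of 24 chains, 6 were higher at an adjusted p under 0.01, where 3.60% of all genes were. These were Col1a2, Col3a1, Col5a1, Col5a3, Col6a1 and Col6a2. At an adjusted p under 0.1 it was 11, with Col5a2 added (8.22% of all genes). With a log2 fold change of at least 1 as well it was 8, without Col1a1 and Col1a2 (2.88%). Adjustment over all 17478 genes with a p-value gave 9 of 42 chains, without Col22a1 (3.48%). A minimum mean of 100 gave 9 of 22 (6.34%), since Col11a1 was then no longer tested. Centring gave 10 of 24 (6.19%). The median log2 fold change of 0.68 became 0.27 over chains with a mean normalized count of at least 1 and 0.62 with at least 100, where the chains added or removed set the value. No start window was called, except 1 with q under 0.01 (Col7a1, lower, of 26, where 1.68% of all windows were called), 2 with 500 bp on each side (Col13a1 and Col25a1, lower, of 24, against 3.20%) and 1 with 2000 bp (Col27a1, higher, of 27, against 3.05%). The mean difference in gene bodies was -0.39 points and -0.49 with the start windows included. No paired analysis was possible because the tables hold no value per clone, and for the same reason no clone could be left out.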

Other observations

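Some called cytosines lay in runs. Counting runs of at least 3 called cytosines of 1 direction with gaps of at most 100 bp, within 1000 bp of an annotated span, 23 runs were found at collagen genes, 15 lower and 8 higher in the authors' deposited table. That is 3.50 runs per 1000 listed cytosines, against 2.97 over the spans of all protein-coding genes, and 65.2% of the runs were lower, against 61.6%. This difference in rate was not tested. Of these, 3 were at chains called by RNA, 2 of them at Col27a1 and 1 at Col22a1. Col13a1, with a mean normalized count of 0.811, had 4 of 4 listed cytosines lower by 26.2 to 32.3 points just inside its start in the authors' deposited table. The whole Col13a1 start window of 103 listed cytosines had 7 lower and 4 higher, with a mean of -0.17 points. Col9a2, with 2.91, had 3 of 3 lower by 32.5 to 38.2 points near its start, and 3 of 4 higher toward its other end. The whole Col9a2 start window of 37 listed cytosines had 3 lower and 2 higher, with a mean of -1.48 points. A run ends at a call of the other direction, so the shares within runs follow in part from the rule. Col25a1 and Col26a1, both at 0, had 2 runs each, both lower in Col25a1 and 1 of each direction in Col26a1. Several runs lie within 1 or 2 CpGs, so their cytosines share reads.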
